A study of Mus musculus with 12 samples.

Results

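The extracellular matrix genes described here were the 56 genes of the deposited count table whose symbol names a collagen chain, or is one of 13 other matrix genes (Fbn1, Fbn2, Mfap2, Mfap5, Eln, Lox, Fn1, Sparc, Postn, Dcn, Lum, Bgn and Fmod). Collagen chains made up 43 of the 56, out of 31332 genes in all. Their transcripts were measured by RNA sequencing in sorted thymic epithelial cells, the stroma in which T cells mature, of C57BL6/J mice at 2 months of age. There were 4 groups of 3 libraries. Cre mTEC (libraries 4, 5 and 6) were medullary cells that carried FoxN1-Cre together with LXRalpha flox and LXR beta flox alleles, and control mTEC (libraries 1, 2 and 3) were medullary cells with the floxed alleles and no Cre in their label. Cre cTEC (libraries 10, 11 and 12) and control cTEC (libraries 7, 8 and 9) were the cortical cells of the same genotypes. All 4 groups therefore carried the floxed alleles. FoxN1, whose gene drives the Cre, is active in thymic epithelium, so mesenchymal cells are not its target. The labels do not say whether libraries came from separate animals, so the p-values measure the spread between libraries, which may be technical.

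Collagens are built from 3 intertwined chains and fall into families: fibrils (types I, II, III, V, XI and related), the basement membrane network (type IV), beaded filaments (type VI) and membrane-bound forms. Fibrillins form the microfibrils of elastic fibres, and the small leucine-rich proteoglycans (Dcn, Lum, Bgn and Fmod) bind collagen fibrils and set their thickness and spacing. In the thymus, matrix lies in the capsule, around vessels and along epithelial surfaces, and much of it is made by mesenchymal cells. LXRalpha and LXR beta are nuclear receptors for oxysterols that pair with RXR on DNA and are best known for genes of sterol export and lipid synthesis.

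Promoter sequence is shown for 4 of these genes that the results turn on: Bgn and Fmod, which fell in Cre cTEC, Fbn1, which rose there, and Mfap2, which rose in Cre mTEC. Each is the 250 bases before a RefSeq start on GRCm38.p6, read 5′ to 3′ on the gene's strand. The windows were chrX:73483351-73483600 (plus strand) for Bgn, chr1:134037004-134037253 (plus) for Fmod, chr2:125506439-125506688 (minus) for Fbn1, and chr4:141010174-141010423 (plus) for the upstream of 2 starts of Mfap2. Capitals mark, on either strand, the receptor half-site AGGTCA, the GC box GGGCGG, the CCAAT box and the TATA box TATAAA.
Bgn: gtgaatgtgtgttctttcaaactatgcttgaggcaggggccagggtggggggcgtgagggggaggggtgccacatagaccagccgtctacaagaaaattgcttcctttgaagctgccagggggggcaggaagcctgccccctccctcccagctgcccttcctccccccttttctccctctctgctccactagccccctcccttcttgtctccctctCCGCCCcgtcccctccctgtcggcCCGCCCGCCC
Fmod: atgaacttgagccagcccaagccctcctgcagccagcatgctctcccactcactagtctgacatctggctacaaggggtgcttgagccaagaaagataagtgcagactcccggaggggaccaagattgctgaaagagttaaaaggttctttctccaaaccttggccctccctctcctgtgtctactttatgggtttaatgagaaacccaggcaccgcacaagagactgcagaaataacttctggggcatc
Fbn1: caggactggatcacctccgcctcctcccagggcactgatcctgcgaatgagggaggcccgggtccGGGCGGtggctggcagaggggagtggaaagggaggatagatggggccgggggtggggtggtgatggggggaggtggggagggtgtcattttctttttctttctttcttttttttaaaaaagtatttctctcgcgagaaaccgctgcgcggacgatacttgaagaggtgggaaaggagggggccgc
Mfap2: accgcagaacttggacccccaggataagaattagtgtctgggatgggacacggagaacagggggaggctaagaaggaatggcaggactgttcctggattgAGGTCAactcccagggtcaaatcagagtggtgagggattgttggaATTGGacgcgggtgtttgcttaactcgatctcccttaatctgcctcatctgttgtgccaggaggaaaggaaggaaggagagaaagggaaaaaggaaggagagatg
Windows were at hand for 41 of the 56 genes. The LXR-type direct repeat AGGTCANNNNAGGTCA was in none of the 41, and in 0.0152% of all 32851 windows of this length. The half-site AGGTCA alone, which the repeat contains, was in the windows of 10 of the 41 genes (14.0% of all windows held it). These were Col4a4, Col6a5, Col7a1, Col9a1, Col11a1, Col20a1, Col23a1, Col24a1, Mfap2 and Postn. The GC box was in 24 of the 41 (32.7% of all windows), CCAAT in 14 (33.8%) and TATAAA in 6 (12.4%). The counts are by gene, over 46 windows because some genes have several, while the percentages are by window. These matches describe letters only, and binding was not measured.

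Library totals ran from 4804697 to 11159013 counts, and library 11, a Cre cTEC library, was the shallowest. Of the 56 genes, 55 passed the filter on low counts, against 17268 of 31332 genes in all. Col28a1 failed it, with at most 1.38 CPM (counts put on a common library size with TMM factors) in any library. As a check of the labels, Nr1h2, the gene of LXR beta, was lower in Cre cTEC at 102 to 124 CPM, against 158 to 192 CPM in control cTEC (adjusted p = 0.00566). It was also lower in Cre mTEC, at 70.4 to 96.1 CPM against 110 to 132 CPM in control mTEC (adjusted p = 0.0158). Leaving out library 2, 3 or 5 ended the second of these calls. Nr1h3, the gene of LXRalpha, had 5.84 to 10.7 CPM over all libraries, the Cre and control ranges overlapped, and which exons were deleted is not given in the labels, so whole-gene counts check the deletion only in part. The markers of the sorted types went with the labels, with summed cTEC markers at 1431 to 2108 CPM in Cre mTEC and 1350 to 1648 CPM in control mTEC, against 7058 to 14780 CPM in Cre cTEC and 6252 to 7679 CPM in control cTEC. Ccl21a was the only listed marker at 0 in most libraries.

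In cortical cells, the proteoglycans fell together while fibrillin-1 and several collagen chains rose. Of the 55 tested genes, 6 were higher in Cre cTEC than in control cTEC (10.9%, beside 5.62% of all genes tested) and 7 were lower (12.7%, beside 3.38% of all genes). The other 42 did not pass. The median log2 fold change was 0.171 over the 55 genes and -0.0213 over all genes. A call was an adjusted p at or under 0.05 by edgeR's quasi-likelihood test, adjusted over all genes. With offsets for transcript length and GC content, 3 of the genes were called higher and 8 lower, and the counts were 11 and 7 without a filter on low counts and 3 and 8 without library 12.

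All 4 small leucine-rich proteoglycans fell. Their summed level was 1564 ± 254.5 CPM in Cre cTEC and 3313 ± 339.7 CPM in control cTEC (SD, n = 3 each). Each of the 4 calls was kept under every alternative setting and with each library left out.

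Decorin (Dcn), which binds type I collagen and growth factors, had 1015, 1241 and 1362 CPM in Cre cTEC libraries 10, 11 and 12, against 2738, 2336 and 2326 CPM in control cTEC libraries 7, 8 and 9. The groups were well apart, and the log2 fold was -1.03 (SE 0.148, adjusted p = 0.000156). Decorin was the highest of the 56 genes per kilobase in both cortical groups. Fibromodulin (Fmod), which takes part in fibril assembly, had 234, 371 and 345 CPM in Cre cTEC, against 841, 830 and 566 CPM in control cTEC. Every Cre library lay under the lowest control library, at a log2 fold of -1.24 (SE 0.173, adjusted p = 0.000132).

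Biglycan (Bgn), a proteoglycan close to decorin, had 9.05, 22.7 and 22.1 CPM in Cre cTEC, against 50.8, 52.5 and 38.2 CPM in control cTEC. Library 10 was the lowest, but the groups did not overlap, and the log2 fold was -1.43 (SE 0.235, adjusted p = 0.00054). Lumican (Lum), the gene next to Dcn on chromosome 10, had 15.4, 32.1 and 21.5 CPM in Cre cTEC, against 44.3, 47.6 and 69.9 CPM in control cTEC. Its groups were also separate, at a log2 fold of -1.27 (SE 0.221, adjusted p = 0.000877).

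Outside that family, the other 3 falls were in a network collagen, a hemidesmosomal collagen and a matricellular protein. Col8a1, a chain of the short-chain network collagen VIII, had 4.36, 11.7 and 6.87 CPM in Cre cTEC, against 26.6, 23.2 and 25.8 CPM in control cTEC. This was the largest fold among the 55 genes (log2 -1.79, SE 0.236, adjusted p = 8.29e-05). Col17a1, the transmembrane collagen of hemidesmosomes, had 43.2, 48.8 and 50.7 CPM in Cre cTEC, against 110, 81.6 and 88.5 CPM in control cTEC (log2 -0.976, SE 0.15, adjusted p = 0.000295). Sparc, a collagen-binding glycoprotein, had 354, 450 and 479 CPM in Cre cTEC, against 796, 764 and 584 CPM in control cTEC (log2 -0.742, SE 0.161, adjusted p = 0.00522). In all 3 genes every Cre library was under every control library, and no setting ended a call.

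**Figure D1:**
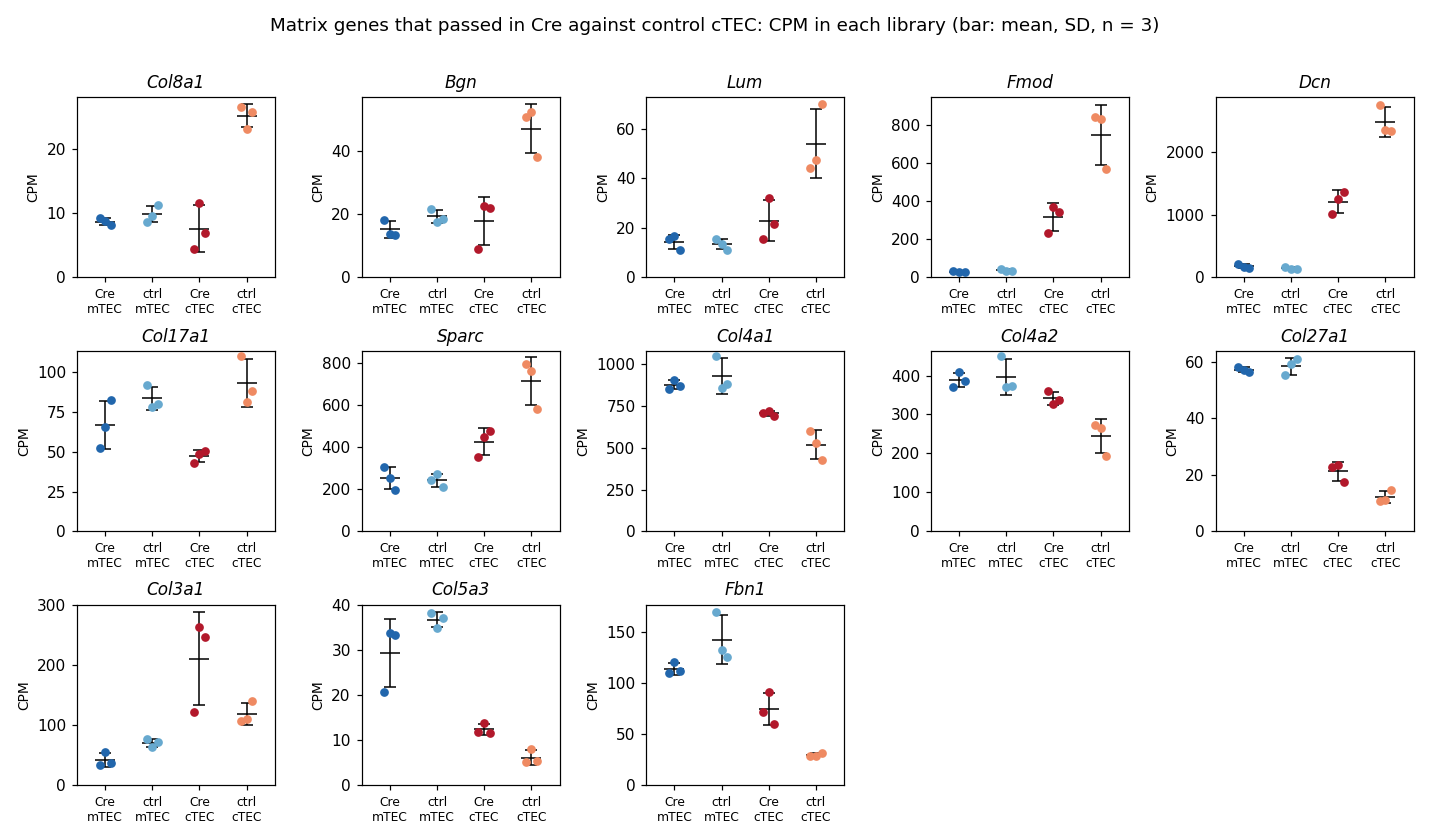
CPM in each library (points) for the genes that passed in Cre against control cTEC, with the mean and SD of each group of 3 as a bar. The 4 proteoglycans, Col8a1, Col17a1 and Sparc are lower in all 3 Cre cTEC libraries than in any control cTEC library, and Col3a1 is the gene whose cortical groups overlap.

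Among the microfibril and elastic fibre genes, 1 of 6 passed. Fibrillin-1 (Fbn1), the main microfibril protein, had 72.0, 91.3 and 60.4 CPM in Cre cTEC, against 28.7, 28.8 and 31.3 CPM in control cTEC. Every Cre library was far above the tight control group, at a log2 fold of 1.33 (SE 0.149, adjusted p = 1.6e-05). Elastin (Eln), the core of the elastic fibre, had 7.82, 5.25 and 6.29 CPM in Cre cTEC, against 11.6, 9.42 and 9.85 CPM in control cTEC. It narrowly missed the threshold (log2 -0.639, SE 0.201, adjusted p = 0.0536), and it was called without library 10 or with a 5 CPM filter. Lox, which crosslinks collagen and elastin, averaged 137 ± 17.6 CPM in Cre cTEC and 184 ± 29.8 CPM in control cTEC and did not pass (adjusted p = 0.0996).

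Of the 11 fibrillar collagen chains, 3 rose and none fell. Col5a3, a chain of fibril-nucleating collagen V, had 11.8, 13.8 and 11.6 CPM in Cre cTEC, against 5.01, 8.07 and 5.28 CPM in control cTEC (log2 1.01, SE 0.222, adjusted p = 0.00547). Col27a1, a fibrillar collagen of cartilage, had 22.7, 23.5 and 17.4 CPM in Cre cTEC, against 10.9, 11.1 and 14.6 CPM in control cTEC (log2 0.787, SE 0.149, adjusted p = 0.0017). Neither pair of groups overlapped, though the Col27a1 call was lost with the length and GC offsets. Col3a1, the chain of type III collagen in soft tissue, had 122, 263 and 247 CPM in Cre cTEC, against 107, 109 and 140 CPM in control cTEC. Library 10 lay inside the control range, and the call (log2 0.818, SE 0.215, adjusted p = 0.0198) was lost without library 7, 8, 11 or 12 and in a fit of the 6 cortical libraries alone.

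Type I collagen did not pass in cTEC. Col1a1 had 11.4, 22.3 and 15.5 CPM in Cre cTEC, against 9.86, 9.75 and 9.13 CPM in control cTEC (log2 0.744, SE 0.236, adjusted p = 0.0558). The groups did not overlap, the gene was called by DESeq2, without a filter and without library 10, and the log2 value was 0.47 without library 11. Col1a2, the other chain of the type I molecule, averaged 22.9 ± 7.92 CPM in Cre cTEC and 29.8 ± 4.22 CPM in control cTEC. Per kilobase of transcript, the ratio of Col1a1 to Col1a2 was 0.511 to 0.748 in Cre cTEC and 0.262 to 0.326 in control cTEC, while in the medulla it ran the other way, at 1.52 to 2.8 in Cre mTEC and 3.15 to 4.21 in control mTEC. Col5a1 over Col5a2, chains of the same collagen V molecule, was 0.728 to 0.862 in Cre cTEC and 0.395 to 0.6 in control cTEC, and 0.641 to 0.75 in Cre mTEC and 0.403 to 0.439 in control mTEC. Both ratios were separate between the genotypes in each cell type. Not all chain ratios were, since Col3a1 over Col1a1 and Col6a1 over Col6a2 overlapped between the genotypes in both cell types. The ratios were not tested, and were not followed under the alternative settings. In cTEC neither Col5a1 (adjusted p = 0.0612) nor Col5a2 (adjusted p = 0.101) passed alone, though Col5a1 was called by DESeq2, by voom, without a filter and without library 8. The Col5a1 log2 value was 0.406, and it ran from 0.178 to 0.453 under the alternatives other than leaving out a library.

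Of the 9 network-forming chains, Col4a1 and Col4a2 rose and Col8a1, described above, fell. Col4a1 and Col4a2 form the common basement membrane collagen IV. Col4a1 had 707, 721 and 690 CPM in Cre cTEC, against 599, 528 and 429 CPM in control cTEC (log2 0.444, SE 0.129, adjusted p = 0.0349). Col4a2 had 360, 326 and 338 CPM in Cre cTEC, against 273, 266 and 194 CPM in control cTEC (log2 0.485, SE 0.13, adjusted p = 0.0224). Both were separate between the groups but among the less stable calls. Col4a1 was lost without library 8, 9, 10 or 12, with the offsets and in the 6-library fit, and Col4a2 without library 9, 10 or 12 and with the offsets. The annotated starts of the 2 genes overlap head to head by 22 bases on chromosome 8, and the library kit does not mark strand, so reads there cannot be assigned to one of them. Their per-kilobase ratio nevertheless held at 1.92 to 2.31 in all 12 libraries.

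The 2 chains of collagen VIII differed in their values. Col8a2, its second chain, had 227, 127 and 194 CPM in Cre cTEC, against 103, 149 and 121 CPM in control cTEC, and did not pass (adjusted p = 0.133), though it was called without library 11 or without a filter. Per kilobase, Col8a2 exceeded Col8a1 by a ratio of 12.9 to 61.5 in Cre cTEC and 4.58 to 7.57 in control cTEC. The remaining network chains showed no call, among them Col4a5, at 97.9, 89.8 and 83.0 CPM in Cre cTEC, against 93.9, 74.5 and 68.8 CPM in control cTEC.

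The beaded-filament and anchoring collagens (types VI and VII) and the fibril-associated collagens had no call in cTEC by edgeR, and none by DESeq2 or limma voom. At an unadjusted p under 0.05 there were 0 of 7 and 1 of 9 such genes, the 1 being Col20a1 (log2 0.827, SE 0.259, adjusted p = 0.0526). Col20a1 was called by edgeR with DESeq2 size factors or with a 5 CPM filter. Col6a1, the most abundant of them per kilobase, had 384, 446 and 480 CPM in Cre cTEC, against 604, 466 and 428 CPM in control cTEC, with overlapping groups. Col18a1, the basement membrane multiplexin that yields endostatin, had 1268, 1094 and 1359 CPM in Cre cTEC, against 1141, 1084 and 1004 CPM in control cTEC, and did not pass (adjusted p = 0.416). Fn1, the adhesive glycoprotein fibronectin, spread widely, at 371, 234 and 204 CPM in Cre cTEC against 281, 188 and 142 CPM in control cTEC.

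In medullary cells, few of the matrix genes changed with genotype. Of the 55 genes, 2 were higher in Cre mTEC than in control mTEC (3.64%, beside 0.585% of all genes tested) and 2 were lower (3.64%, beside 1.49% of all genes). The median log2 fold change was -0.0327 over the 55 genes and 0.00814 over all genes. With the offsets the counts were 2 higher and 4 lower, and with a 5 CPM filter 2 and 0.

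The 2 that rose were a microfibril protein and a fibrillin. Mfap2, a microfibril-associated glycoprotein that binds fibrillins, had 9.43, 14.9 and 8.57 CPM in Cre mTEC, against 4.58, 3.28 and 3.14 CPM in control mTEC (log2 1.56, SE 0.263, adjusted p = 0.00473). Fbn2, the fibrillin prominent in development, had 16.7, 12.5 and 15.8 CPM in Cre mTEC, against 6.83, 6.13 and 6.67 CPM in control mTEC (log2 1.2, SE 0.231, adjusted p = 0.0101). Both were above control in every Cre library. The Mfap2 call held without each library, while that of Fbn2 was lost without library 1, 2, 3 or 4. Fbn1 had 110, 121 and 112 CPM in Cre mTEC, against 170, 132 and 126 CPM in control mTEC, and did not pass (adjusted p = 0.248, with a log2 value of -0.325, or -0.18 without library 1). Per kilobase, Fbn1 exceeded Fbn2 by a ratio of 6.05 to 8.93 in Cre mTEC and 17.4 to 23.0 in control mTEC.

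The 2 that fell were collagen chains. Col1a1 had 14.9, 22.9 and 26.8 CPM in Cre mTEC, against 42.0, 34.2 and 37.0 CPM in control mTEC (log2 -0.808, SE 0.198, adjusted p = 0.0381). Col6a5, an alternative partner chain of collagen VI, had 15.4, 16.1 and 21.4 CPM in Cre mTEC, against 34.5, 25.8 and 32.8 CPM in control mTEC (log2 -0.814, SE 0.2, adjusted p = 0.0379). Neither pair of groups overlapped, but both calls were lost without library 1, 2, 3, 4 or 5 and with a 5 CPM filter. Col7a1, the anchoring fibril collagen, had 8.06, 5.12 and 8.98 CPM in Cre mTEC, against 12.5, 12.4 and 13.6 CPM in control mTEC. It did not pass (log2 -0.785, SE 0.212, adjusted p = 0.0603), and was called by DESeq2, without a filter on low counts, with the offsets, in the 6-library fit and without library 6.

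None of the 4 proteoglycans passed in mTEC by edgeR, DESeq2 or limma voom, and 0 of 4 had an unadjusted p under 0.05. Dcn had 209, 170 and 147 CPM in Cre mTEC, against 165, 137 and 136 CPM in control mTEC, and the groups overlapped. Fmod had 32.2, 28.5 and 28.8 CPM in Cre mTEC, against 46.4, 33.0 and 34.1 CPM in control mTEC (log2 -0.348, or -0.173 without library 1, adjusted p = 0.439). The same count of 0 calls held for the 9 network-forming chains by all 3 tools, with 0 at an unadjusted p under 0.05. Col8a2 was called without a filter, with 4.26, 11.9 and 4.08 CPM in Cre mTEC against 3.41, 4.49 and 3.92 CPM in control mTEC. Its log2 value was 0.77, or 0.0845 without library 5.

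**Figure D2:**
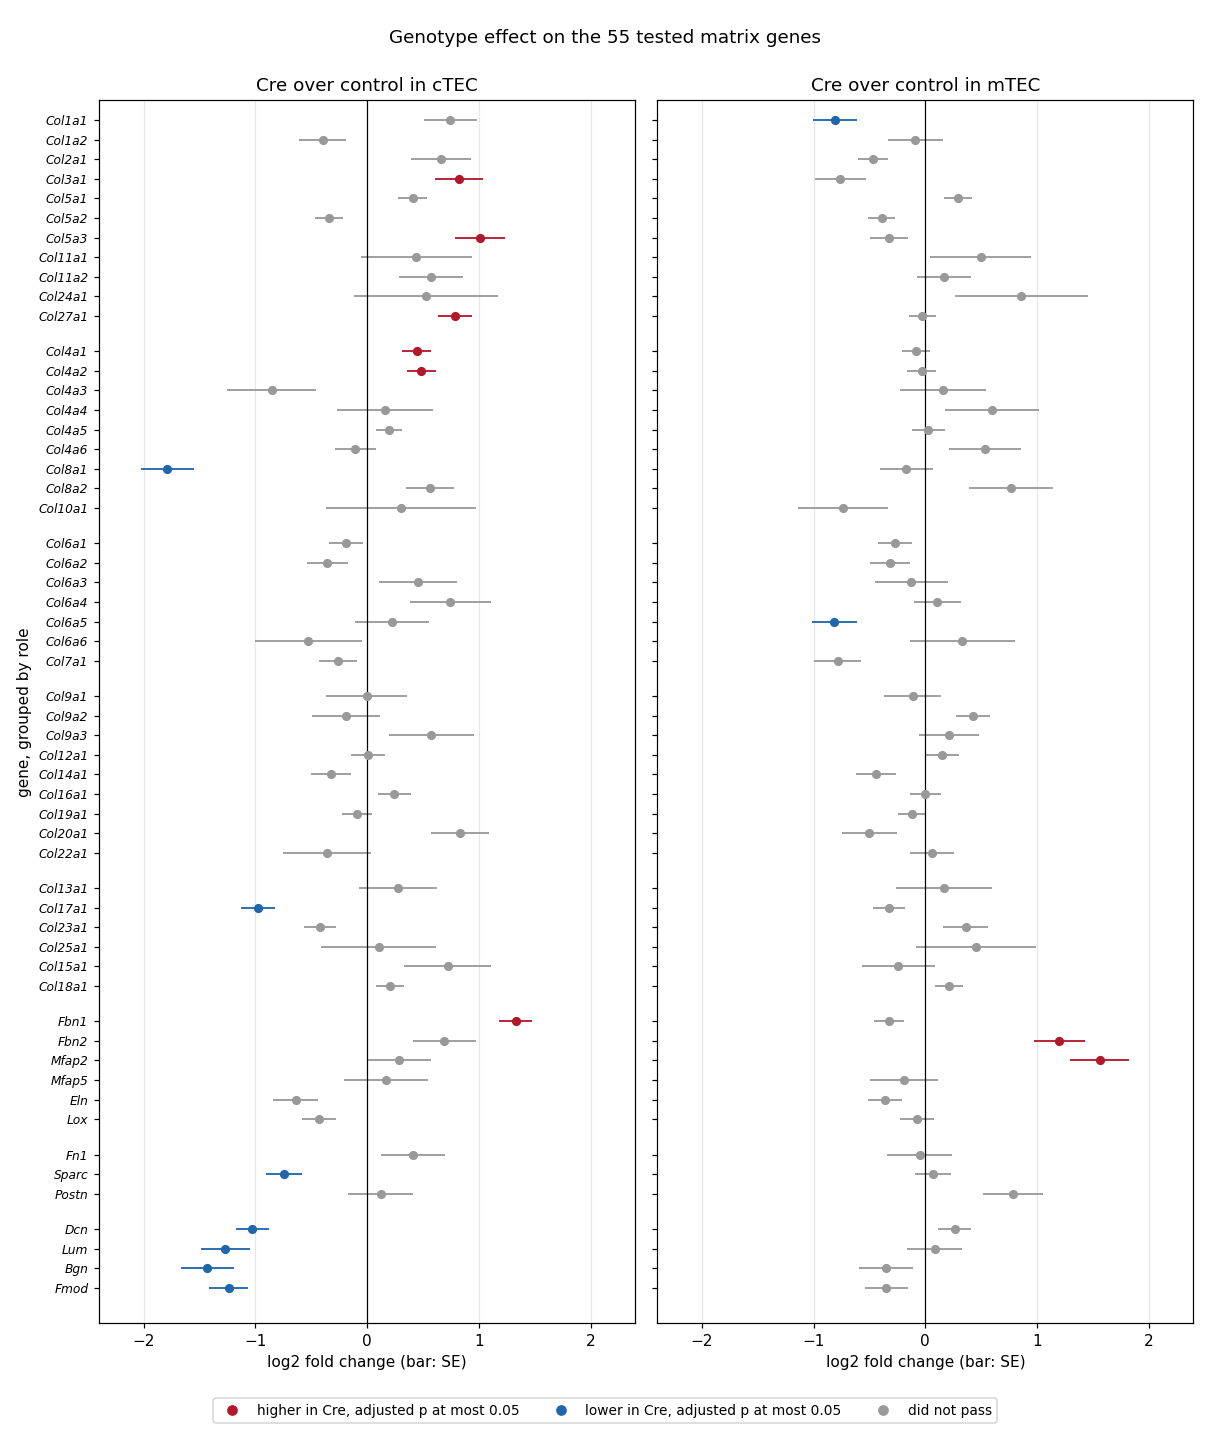
Log2 fold change of Cre over control (points, bars are SE) for the 55 tested genes in cTEC and in mTEC, ordered by role, with genes at an adjusted p of at most 0.05 in colour. In cTEC 6 genes are higher and 7 lower, including all 4 proteoglycans, and in mTEC 2 are higher and 2 lower.

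The genotype effect itself was compared between the cell types, as the cTEC effect minus the mTEC effect. Of the 55 genes, 7 had a higher effect in cTEC than in mTEC (12.7%, beside 2.92% of all genes) and 3 a lower one (5.45%, beside 1.08% of all genes). The median difference was 0.0272 over the 55 genes and -0.0386 over all genes. The split varied, at 4 higher and 3 lower with the offsets, 5 and 5 with voom, 8 and 6 without a filter, 6 and 7 without library 11 and 6 and 6 without library 12.

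Fbn1 had the largest positive difference, at 1.65 (SE 0.2, adjusted p = 0.000363), from a log2 effect of 1.33 in cTEC and -0.325 in mTEC. A type III and a type I collagen chain followed, with differences of 1.58 for Col3a1 (SE 0.313, adjusted p = 0.00735) and 1.55 for Col1a1 (SE 0.308, adjusted p = 0.00743). Both had positive effects in cTEC and negative ones in mTEC, namely 0.818 and -0.762 for Col3a1 and 0.744 and -0.808 for Col1a1. For Col1a2, the other type I chain, the difference was not called. The mTEC value of Col3a1 passed only without a filter, with the offsets or in the 6-library fit. Col5a3 differed by 1.34 (SE 0.278, adjusted p = 0.00938). These 4 differences passed under every alternative and without each library.

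The other 3 positive differences were less stable. Col20a1 differed by 1.33 (SE 0.355, adjusted p = 0.0403) and lost its call when any library other than 10 or 11 was left out, with voom and with the offsets. Col2a1, the fibrillar collagen of cartilage, differed by 1.13 (SE 0.3, adjusted p = 0.039) and lost its call without library 1, 4, 5, 7, 8, 10 or 11, with voom and with the offsets. Col27a1 differed by 0.815 (SE 0.191, adjusted p = 0.0192), lost without library 3, 7 or 8 and with the offsets.

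On the other side, Col8a1 had the most negative difference, at -1.62 (SE 0.336, adjusted p = 0.00944). Lum differed by -1.35 (SE 0.329, adjusted p = 0.0241) and Dcn by -1.29 (SE 0.211, adjusted p = 0.0022). The Dcn and Col8a1 calls held in every setting, and that of Lum was lost without library 3, 4, 5 or 9. For Fmod (-0.888, SE 0.259, adjusted p = 0.0633) and Bgn (-1.08, SE 0.338, adjusted p = 0.0873) the difference did not pass in the fit of all libraries. Fmod passed by DESeq2, by voom, without a filter, and without library 1, 9 or 11. Bgn passed without a filter and without library 11 or 12, and its value was -0.717 without library 10. Mfap2 and Fbn2, the genes that rose in Cre mTEC, did not pass either (adjusted p = 0.0762 for Mfap2 and 0.554 for Fbn2), though Mfap2 was called without library 6. The Fbn2 value was -0.507, or -0.229 without library 10.

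Medullary and cortical epithelium differed in most of these genes. In the Cre groups, 23 of the 55 were higher in mTEC than in cTEC (41.8%, beside 25.1% of all genes) and 16 were lower (29.1%, beside 24.5% of all genes). Between control mTEC and control cTEC, 25 were higher in mTEC (45.5%, beside 29.3% of all genes) and 17 were lower (30.9%, beside 30.0% of all genes). The median log2 value, mTEC over cTEC, was 0.268 in Cre and 0.206 in control over the 55 genes, against -0.0176 in Cre and -0.0542 in control over all genes. With the offsets the median over all genes moved to -0.191 in Cre and -0.105 in control, and by DESeq2 to -0.201 in control. With the offsets the counts were 19 higher and 16 lower in Cre, and 22 higher and 20 lower in control. These comparisons share libraries with the genotype comparisons above, so their values are set side by side and not correlated.

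Col6a1 and decorin led the 2 sides. Per kilobase, Col6a1 ranked first in mTEC, with 25.5% of the summed level of the 56 genes in Cre mTEC and 28.1% in control mTEC, while Dcn ranked first in cTEC, with 18.6% in Cre cTEC and 28.2% in control cTEC. Relative to cTEC, mTEC had less Col8a2, by a log2 value of -4.77 (SE 0.286) in Cre and -4.98 (SE 0.297) in control. The values for Fmod were -3.41 (SE 0.197) in Cre and -4.29 (SE 0.199) in control, and those for Dcn were -2.78 (SE 0.158) in Cre and -4.08 (SE 0.167) in control. In all 3 genes the cell types were far apart in both genotypes, with adjusted p-values of at most 7.03e-11. All 4 proteoglycans were lower in control mTEC than in control cTEC. Between the Cre groups Bgn was not, at -0.202 (SE 0.252, adjusted p = 0.54), and Lum, at -0.651 (SE 0.24, adjusted p = 0.0305), lost its call without library 4, 6 or 11, with a value of -0.334 without library 11, and with voom, a 5 CPM filter and the 6-library fit.

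**Figure D3:**
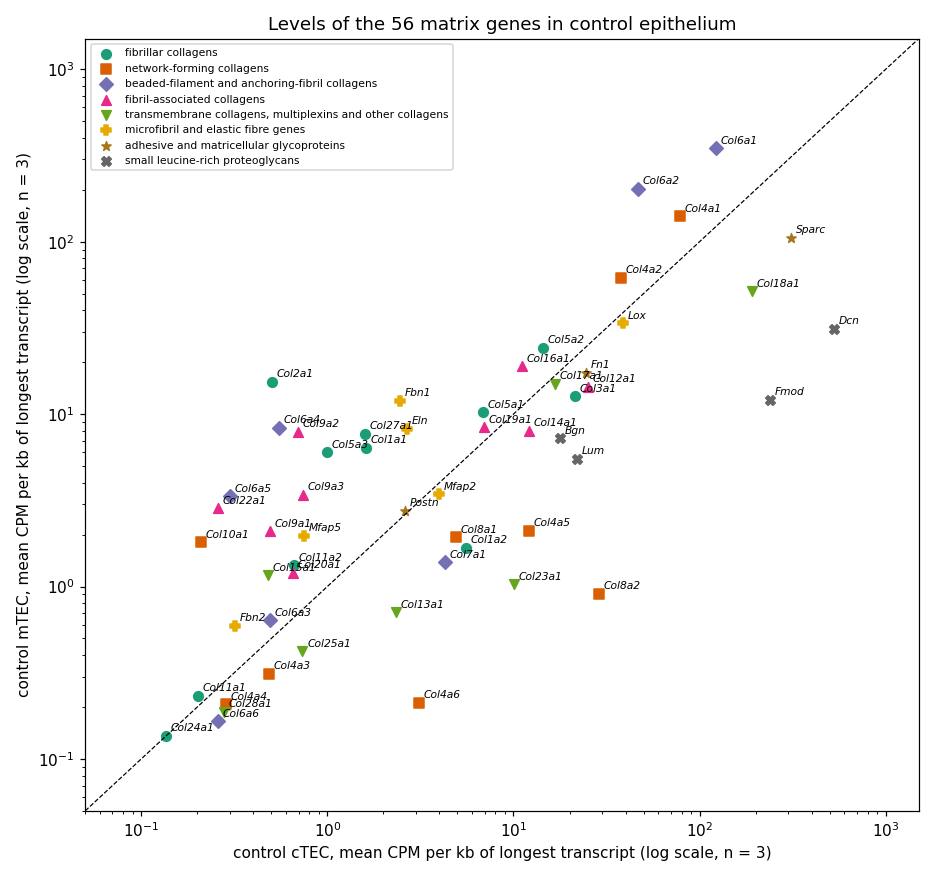
Mean CPM per kilobase of the longest annotated transcript in control mTEC (y axis) and control cTEC (x axis), on log scales, for all 56 genes, with symbols by role. Col6a1 and Col6a2 lie highest, and Dcn, Sparc, Fmod and Col18a1 lie far to the right.

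Collagen VI was higher in mTEC. Its molecule joins an alpha-1 chain, an alpha-2 chain and 1 of several partner chains. Col6a1 had 1219, 1308 and 1021 CPM in Cre mTEC, 1669, 1351 and 1255 CPM in control mTEC, and 384 to 604 CPM over the 6 cTEC libraries. Col6a2, its neighbour on chromosome 10, was higher in mTEC than in cTEC by 2.15 (SE 0.187) in Cre and 2.11 (SE 0.186) in control on the log2 scale. The usual partner chain was scarce everywhere, since Col6a3 had 3.13 to 11.1 CPM in the 12 libraries and Col6a1 exceeded it per kilobase by a ratio of at least 99.3. In mTEC the partner-chain transcripts were mostly Col6a4, at 64.3, 56.3 and 78.1 CPM in Cre mTEC and 63.5, 55.0 and 66.1 CPM in control mTEC, against 2.91 to 12.4 CPM over all cTEC libraries. Per kilobase, Col6a4 over Col6a3 was 11.4 to 18.1 in Cre mTEC and 12.2 to 14.0 in control mTEC, against 1.27 to 1.54 in Cre cTEC and 0.876 to 1.43 in control cTEC.

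Basement membrane chains split by cell type as well. Between Cre mTEC and Cre cTEC, Col4a2 did not pass (log2 0.188, adjusted p = 0.244), and Col4a1 only just did (log2 0.313, SE 0.128, adjusted p = 0.0497), a call lost without library 4, 5, 6, 10 or 12 and with the offsets. Both were higher in control mTEC than in control cTEC (log2 0.842, SE 0.129 for Col4a1, and 0.705, SE 0.13 for Col4a2), though Col4a2 was not called with the offsets. Col4a5 and Col4a6, neighbours on the X chromosome whose chains can join in a collagen IV molecule, were cortical. Col4a5 had 13.1 to 15.2 CPM in Cre mTEC and 12.9 to 14.3 CPM in control mTEC, against 83.0 to 97.9 CPM in Cre cTEC and 68.8 to 93.9 CPM in control cTEC. Col4a6 was lower in mTEC by a log2 value of -3.22 (SE 0.241) in Cre and -3.86 (SE 0.243) in control. Col4a3 and Col4a4, which are among the chains of the kidney network, had at most 5.36 CPM in all libraries, and were not called in either genotype.

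**Figure D4:**
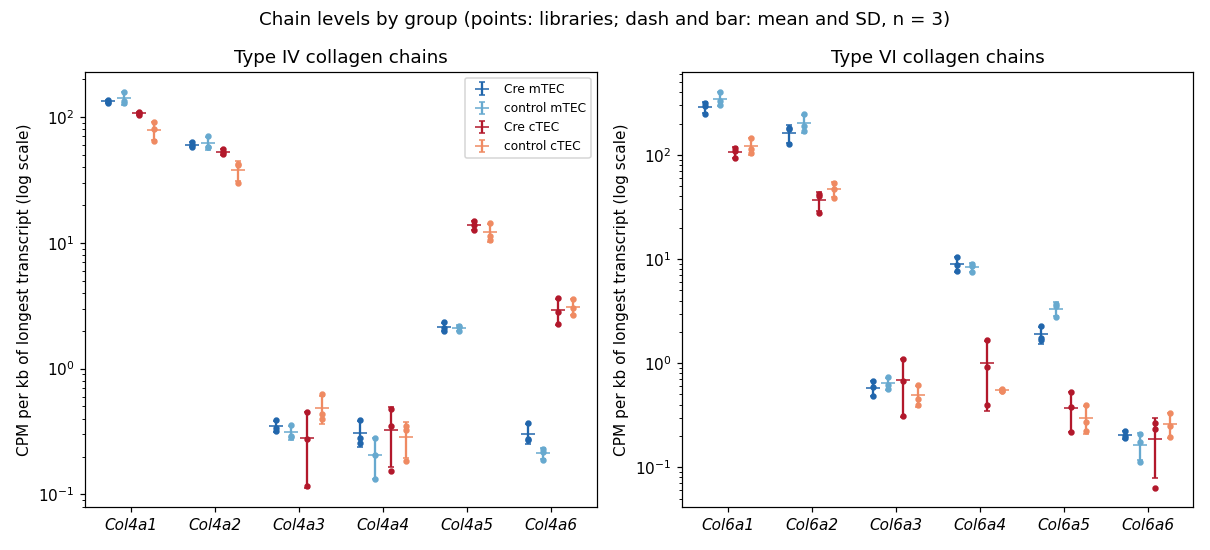
CPM per kilobase of transcript on a log scale for the chains of selected collagens, by group (points are libraries, dashes and bars are mean and SD, n = 3). Col6a4 and Col6a5 are high only in mTEC, Col4a5 and Col4a6 are high in cTEC, and Col6a3 is low in all 4 groups.

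Several collagens known from cartilage were higher in mTEC, a grouping made after their values were seen. Col2a1 had 51.4, 55.7 and 63.4 CPM in Cre mTEC and 89.5, 74.3 and 72.0 CPM in control mTEC, against 4.02, 5.05 and 3.51 CPM in Cre cTEC and 1.56, 2.86 and 3.28 CPM in control cTEC. Its difference between control mTEC and control cTEC, 4.91 (SE 0.194), was the largest positive one among the 55 genes. The 3 chains of collagen IX, which coats type II fibrils, were higher too, led by Col9a2 at a log2 value of 4.11 (SE 0.212) in Cre and 3.5 (SE 0.212) in control. Col10a1, of growth cartilage, was at 2.56 to 4.35 CPM in Cre mTEC and 5.58 to 5.75 CPM in control mTEC, against at most 1.55 CPM in cTEC. Collagen XI, also of cartilage, differed less, with Col11a1 called in neither genotype (adjusted p = 0.672 in Cre and 0.733 in control) and Col11a2 called in control only (log2 0.595, adjusted p = 0.0645 in Cre, and 1.0, adjusted p = 0.00385 in control). Medullary epithelium is known for low-level transcription of genes of other tissues, and cells were not resolved singly here.

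For several genes the distance between the cell types was unlike in the 2 genotypes. Fbn1 was higher in mTEC than in cTEC by 0.62 (SE 0.138, adjusted p = 0.000926) in Cre and 2.27 (SE 0.148, adjusted p = 1.44e-10) in control. Col1a1 did not pass in Cre (log2 0.429, SE 0.214, adjusted p = 0.105), and was higher in control mTEC than in control cTEC by 1.98 (SE 0.219). Col3a1 was lower in mTEC by -2.33 (SE 0.23) in Cre and -0.754 (SE 0.218, adjusted p = 0.0062) in control, the second of which was lost by DESeq2. Sparc was lower in mTEC by -0.753 (SE 0.162) in Cre and -1.56 (SE 0.164) in control. Of these, the change with genotype passed for Fbn1, Col1a1 and Col3a1, as given above, and not for Sparc (adjusted p = 0.0537), which passed by DESeq2, by voom, without a filter and without library 6, 9, 11 or 12.

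Genes that work with these proteins were counted in 4 lists. Of 15 basement membrane partners, 5 rose in Cre cTEC, beside 5.62% of all genes, and none fell, beside 3.38%. They were the laminin chains Lamc1 (log2 0.692, SE 0.128, adjusted p = 0.00137), Lama5 (0.735, SE 0.146, adjusted p = 0.00247) and Lama4 (0.405, SE 0.111, adjusted p = 0.025), the linker Nid2 (0.66, SE 0.137, adjusted p = 0.00367) and perlecan, Hspg2 (0.553, SE 0.166, adjusted p = 0.0423). Lama4 was lost without library 8, 9, 10 or 12, and Hspg2 without library 7, 9, 10, 11 or 12 and in the 6-library fit (0.866 without library 8 and 0.344 without library 9). With the length and GC offsets the count was 1, Nid2.

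Of 21 elastic fibre and matrix partners, 2 rose in Cre cTEC (5.62% of all genes) and 4 fell (3.38% of all genes). Efemp1, a fibulin, averaged 39.9 ± 7.79 CPM in Cre cTEC and 130.1 ± 11.9 CPM in control cTEC (log2 -1.72, SE 0.134, adjusted p = 2.73e-07). Thrombospondin-1, Thbs1, averaged 80.8 ± 11.5 CPM in Cre cTEC and 188.8 ± 34.7 CPM in control cTEC (log2 -1.23, SE 0.202, adjusted p = 0.00053). Both falls held in every setting. The latent TGF-beta binding proteins moved both ways, with Ltbp2 (0.579, SE 0.14, adjusted p = 0.0116) and Ltbp1 (0.446, SE 0.125, adjusted p = 0.029) up and Ltbp4 (-0.581, SE 0.141, adjusted p = 0.0118) down. Ltbp2 was lost without library 7, 9 or 10, Ltbp1 without library 8, 9 or 10 and in the 6-library fit, both with the offsets, and Ltbp4 without library 7. Prelp, a further leucine-rich proteoglycan, also fell (-0.561, SE 0.16, adjusted p = 0.0321), a call lost without library 7 (value -0.368) or 10, with the offsets and in the 6-library fit. With the offsets none of the 2 rises and 3 of the 4 falls were called.

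Of 24 genes of collagen biosynthesis and processing, which fold, hydroxylate and crosslink the chains, none rose in Cre cTEC (5.62% of all genes) and 2 fell (3.38% of all genes). These were Loxl4 (log2 -1.01, SE 0.246, adjusted p = 0.0117), lost without library 7, and Plod3 (-0.396, SE 0.115, adjusted p = 0.0361), lost without library 7, 8, 10 or 11, without a filter, with the offsets and in the 6-library fit. Of 21 matrix receptors, 4 fell (3.38% of all genes) and none rose (5.62% of all genes). The 4 were the syndecan Sdc1 (-0.856, SE 0.117, adjusted p = 0.000108) and the integrin chains Itga6 (-0.538, SE 0.116, adjusted p = 0.00496), Itga1 (-0.594, SE 0.149, adjusted p = 0.0147) and Itga8 (-0.465, SE 0.126, adjusted p = 0.0243). Itga1 was lost without library 7, 8 or 10 and in the 6-library fit, and Itga8 without library 7, 9, 10 or 12 and without a filter. With the offsets the count was 2, without Itga6 and Itga8.

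In Cre mTEC (0.585% of all genes higher, 1.49% lower) the only call in the 4 lists was Cd44, a hyaluronan receptor, at 101.0 ± 16.7 CPM against 159.1 ± 28.9 CPM in control mTEC (log2 -0.657, SE 0.145, adjusted p = 0.0218), lost without library 1, 3 or 5. In the other 3 lists, edgeR gave 0 calls, with 5 of 24, 4 of 15 and 4 of 21 genes at an unadjusted p under 0.05. DESeq2 called 1 biosynthesis and 1 basement membrane gene, and voom 1 biosynthesis gene.

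Matrix genes are the usual products of mesenchymal cells, so markers of other cells were measured beside them. The summed level of 12 fibroblast and mesenchyme markers was 43.81 to 72.09 CPM in Cre cTEC and 50.66 to 56.1 CPM in control cTEC. The ranges overlapped, and the part of such cells in the fall of the proteoglycans was not tested. Pdgfra, a defining fibroblast marker, had 2.46, 6.41 and 4.09 CPM in Cre cTEC, against 5.53, 4.37 and 5.14 CPM in control cTEC, and was at 0 in no library. Library 10 was the lowest Cre cTEC library in this sum, Pdgfra, Sparc, Col3a1 and each of the proteoglycans Dcn, Fmod, Bgn and Lum. By contrast, library 10 was the highest Cre cTEC library in the cTEC marker sum, Fn1, Lox, Col12a1 and Col8a2. Its Fap value, 5.92 CPM, lay above the control cTEC libraries (3.46 to 4.71 CPM). A link between these values was not tested. Of the 9 markers tested, 1 passed, Osr1, lower at 2.46 ± 0.874 CPM in Cre cTEC against 5.33 ± 1.75 CPM in control cTEC, and lost without library 7, 9, 10 or 12, with voom and in the 6-library fit. Prrx1 and Fap ran the other way and did not pass. Prrx1 averaged 10.27 ± 4.71 CPM in Cre cTEC and 5.53 ± 1.47 CPM in control cTEC (log2 0.836, adjusted p = 0.0896), and Fap averaged 6.91 ± 1.62 CPM in Cre cTEC and 4.25 ± 0.685 CPM in control cTEC (log2 0.697, adjusted p = 0.18).

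Among other cells, summed pericyte and smooth muscle markers were 576.9 to 615.6 CPM in Cre cTEC and 455.8 to 711.7 CPM in control cTEC, with Myh11 and Rgs5 of 10 called higher. Endothelial markers summed to 19.67 to 39.44 CPM in Cre cTEC and 29.93 to 45.68 CPM in control cTEC, with Plvap of 9 called lower, and the 4 mesothelial markers to 47.66 to 60.82 CPM in Cre cTEC and 33.83 to 48.94 CPM in control cTEC. Thymocyte markers summed to 117.4 to 146.6 CPM in Cre cTEC and 100.4 to 162.6 CPM in control cTEC. In every one of these lists the cortical ranges overlapped, as did those of 4 epithelial markers (3668 to 5094 CPM in Cre cTEC and 4158 to 4307 CPM in control cTEC), of which Krt5 was called lower. The mTEC marker sum did not overlap, at 493.9 to 535.2 CPM in Cre cTEC and 924.3 to 1100 CPM in control cTEC. Most of that sum was Krt14, at 437.2 ± 8.33 CPM in Cre cTEC and 968.8 ± 93.4 CPM in control cTEC. Of the 5 tested mTEC markers Krt14 was lower and Fezf2 and Tnfrsf11a were higher. Of 6 cTEC markers 4 were higher (Psmb11, Prss16, Ly75 and Dll4). Psmb11 was lost without library 7, 9, 10 or 12 and by DESeq2, Prss16 without library 7, 9 or 10, Rgs5 without library 7, 8, 9, 11 or 12, with other size factors, voom or a 5 CPM filter, and Plvap without library 9. Without library 10 the log2 values of Psmb11, Prss16 and Ly75 were 0.634, 0.555 and 0.605, against 0.981, 0.944 and 0.99 with it. The part of these shifts in the matrix gene results was not tested, and in bulk libraries fewer cells of a type and less RNA per cell cannot be told apart.

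In the medulla, fibroblast markers summed to 89.45 to 101.9 CPM in Cre mTEC and 99.11 to 106.8 CPM in control mTEC, above the cortical sums. Pericyte and smooth muscle markers summed to 1886 to 2471 CPM in Cre mTEC and 1695 to 1982 CPM in control mTEC, and mesothelial markers to 301.8 to 478.7 CPM in Cre mTEC and 189.7 to 312.7 CPM in control mTEC. Endothelial markers summed to 55.72 to 74.24 CPM in Cre mTEC and 68.7 to 72.26 CPM in control mTEC. All 4 sums were higher in both mTEC groups than in the cTEC groups, and their part in the mTEC against cTEC values was not tested. Most of the mesothelial sum was Msln, at 366.1 ± 89.22 CPM in Cre mTEC and 250.6 ± 64.35 CPM in control mTEC. Not every marker was higher in mTEC. In control, Twist1, Wt1 and Cldn5 were called lower, beside 4 of 9 fibroblast, 3 of 4 mesothelial and 4 of 9 endothelial markers higher. In Cre, Twist1 and Fap were called lower, beside 5 of 9 fibroblast markers higher. The matrix genes ran both ways. In control, 25 of the 55 were higher in mTEC (29.3% of all genes) and 17 lower (30.0% of all genes), Dcn and Fmod among the lower. Summed thymocyte markers were lower in mTEC than in cTEC, at 71.94 to 100.3 CPM in Cre mTEC and 68.98 to 82.33 CPM in control mTEC. The mTEC marker sum was 2916 to 3075 CPM in Cre mTEC and 3391 to 3474 CPM in control mTEC, with no overlap. However, none of its 5 tested genes was called between these groups by edgeR or DESeq2, and voom called 1. Krt14, the largest part of the sum, averaged 1460 ± 186.7 CPM in Cre mTEC and 1592 ± 88.12 CPM in control mTEC (adjusted p = 0.72). Among the marker genes, Osr1 and Mcam were called lower in Cre mTEC, Osr1 not without library 1, 2 or 5. The part of these values in the medullary genotype results was not tested.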

How the data were processed

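Sorted mTEC and cTEC were profiled in 12 libraries, assigned to 4 groups of 3 from the labels (cell type, genotype). Libraries are numbered 1 to 12 with no number shared between groups, so none were paired. The values are raw counts of reads per gene symbol, as the authors deposited them in 1 table. The submitters' processing notes name STAR, HTSeq, edgeR and mm9, and give no versions. The kit does not mark strand, per its name in the labels' protocols. No coordinates were taken from the counts. Transcript lengths came from GENCODE M21 (GRCm38, longest transcript), and promoters from RefSeq on GRCm38.p6.

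From the counts, TMM-scaled CPM and edgeR's quasi-likelihood test were computed (edgeR 4.0.16, R 4.3.3), two-sided, after filterByExpr, with all 12 libraries in 1 fit, 8 residual degrees of freedom, and adjustment by Benjamini-Hochberg over 17268 genes (threshold 0.05). Adjusted p-values come from it unless another tool is named, and fold changes are the group named first over the second. One count was worth 0.0898 to 0.194 CPM. Alternatives were DESeq2 size factors, DESeq2 1.42.0, limma voom (limma 3.58.1), no filter, a filter of 5 CPM in 3 libraries, length and GC offsets (98.01% of genes had both values), a fit of just the 6 libraries in question, and leaving out each library in turn. The tests were checked on simulated data. Genes and lists were chosen with earlier results of these data known. Any of the 56 genes could be named, and of partner lists at most 4 genes by p per comparison. Hspg2, Prelp and Ltbp1 lie outside that limit, and they, the floxed genes and the single marker genes were named after their values were seen. Levels of different genes are compared only per kilobase.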

Additional observations from a re-analysis of the deposited data

Results flagged for a closer look

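The genotype effect differed between cortical and medullary cells, by the test of the difference itself (cTEC effect minus mTEC effect, log2), in 10 of the 55 tested genes. The differences were 1.65 for Fbn1, 1.58 for Col3a1, 1.55 for Col1a1, 1.34 for Col5a3, 1.33 for Col20a1, 1.13 for Col2a1, 0.815 for Col27a1, -1.29 for Dcn, -1.35 for Lum and -1.62 for Col8a1. For the 7 genes with a positive difference the estimate was positive in cTEC and negative in mTEC, though for Col27a1 the mTEC estimate was -0.0283. Of those estimates, the ones that passed alone were Fbn1, Col3a1, Col5a3 and Col27a1 in cTEC and Col1a1 in mTEC.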

How the results depend on the processing

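The total counts of changed matrix genes stayed within 1.5 times of the reported value under all alternatives in 4 of the 5 comparisons. For Cre against control cTEC (13) they ran from 11 to 18 under other settings and 11 to 16 with a library left out. Counts by direction moved more. In cTEC (6 higher, 7 lower) the higher calls ran from 3 (with the offsets, or without library 12) to 11 (no filter), and the lower calls were 7 or 8. For the difference of effects (7 higher, 3 lower) the higher calls ran from 4 to 9, and the lower calls from 2 (without library 3 or 5) to 7 (without library 11). The exception in the totals was Cre against control mTEC (4), where DESeq2 gave 7, no filter 10, a 5 CPM filter 2 and the 6 mTEC libraries alone 9. With a library left out it ran from 1 to 6, with 1 without each of libraries 1, 2, 3 and 4, 2 without library 5 and 6 without library 6. The cause was not tested. Single values were followed under the alternatives for called genes and some uncalled ones, and none of these reversed its sign. Of the values so followed, 612 kept their side of the threshold, 86 lost and 17 gained a call in cTEC, and in mTEC the numbers were 269, 25 and 18. One count was worth at least 0.0898 CPM, which bounds what depth resolves. No paired analysis was possible because the library numbers are not shared between groups.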
